A study of Homo sapiens with 2 samples.

Results

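Solute carriers are membrane proteins that move amino acids, sugars, metals, vitamins, bile acids and other small molecules across the plasma membrane or the membranes of organelles, and their genes carry symbols that begin with SLC or SLCO. Solute carrier symbols were measured in A549 cells, an established human lung adenocarcinoma cell line, after silencing of p62/SQSTM1. Members were the genes whose symbol in the platform annotation begins with SLC or SLCO and a number, and they were chosen by level: the higher log2 value of the 2 arrays had to reach the median of all named values, called the limit below. Since the higher array decided, a gene could pass through either array alone; 20 of the 21 members reached the limit in both arrays, and SLC35D4 reached it in siP62 cells only. Of 38 such symbols, 21 passed this limit, against 7896 of all 14884 named genes (the kept genes). The carrier genes SLC7A11, SLC3A2, SLC7A5, SLC1A5, SLC38A2, SLC2A1, SLC30A1, SLC40A1 and SLC16A1 were not among the 38 symbols and could not be described. Only probe sets with a single gene symbol were used, so these genes may still be read by probe sets that were left out. Genes that have an SLC number only as a RefSeq synonym are no members and are set beside them further on. The superfamily beyond these was not analysed here, so the members are no census of the carriers of A549 cells.

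The siP62 cells were A549 cells that had received an siRNA against p62/SQSTM1, a small duplex RNA that triggers breakdown of the mRNA it pairs with. The siCONTROL cells were A549 cells that had received a control siRNA. RNA was taken with Trizol at 24 hours, and 100 ng of it was labelled for the Affymetrix whole-transcript arrays. Each group was read on 1 array and each member by 1 probe set, so no value has a replicate error and the groups could not be tested against each other. Every difference is the siP62 value minus the siCONTROL value on the log2 scale.

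The target of the siRNA, SQSTM1, had 7.30 (log2) in siP62 cells, against 8.64 in siCONTROL cells, which left 39.5% of the control level. Of the 5 epithelial markers set down for A549, 4 were named on the array (KRT8, KRT18, KRT19 and EPCAM) and all 4 passed the limit, with differences from 0.02 to 0.21. The 2 named endothelial markers, VWF and PECAM1, and the named fibroblast marker, DCN, lay below the limit in both arrays. The 2 named leukocyte markers, CD68 and CD14, passed the limit and differed by -0.06 and -0.04. Of the 3 alveolar markers only SFTPB passed it, through siCONTROL cells alone (5.30 in siP62 cells and 5.66 in siCONTROL cells). None of the 4 metabolic markers set down for A549 was among the named genes. In bulk RNA, fewer cells of a type and less RNA per cell cannot be told apart.

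p62 is a receptor of selective autophagy, which delivers ubiquitin-marked cargo to the lysosome. Lysosomal carriers return the products of digestion, such as amino acids and vitamins, to the cytosol, while carriers of the Golgi bring in the nucleotide sugars used for glycosylation and carriers of the mitochondrial inner membrane exchange metabolites with the cytosol. The members fell across these compartments. By the symbols, 19 were carriers or carrier-like proteins and 2 were not carriers. SLC2A4RG encodes a DNA-binding regulator of the glucose transporter gene in its name, and SLC9A3-OT1 is a long noncoding RNA.

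Most solute carrier symbols had nearly the same value in both arrays. The median difference over the 21 members was -0.01, against 0.04 over all kept genes, and it was 0.00 over the 19 carriers. Of the members, 9 were above 0, 11 below 0 and 1 at 0, where 55.4% of all kept genes were above 0 and 41.8% below 0. SLC35D4 was the only member at least 1.5-fold higher in siP62 cells and SLC51B the only member at least 1.5-fold lower, where the shares of all kept genes past these limits were 2.08% and 1.6%, or 1.61% and 1.95% after median centring, under which the members' counts stayed at 1 and 1. No member was 2-fold higher or 2-fold lower, as were 0.165% and 0.228% of all kept genes. Past a difference of 0.32 on the log2 scale, 3 members were higher and 2 lower, where 11.3% and 7.13% of all kept genes were. With 21 members these counts past a fold lie near the shares of all kept genes. In 20 bins of mean level, 4 members lay beyond 2 robust SDs of their bin (scaled median absolute deviations over genes), against 8.08% of all kept genes. This was not tested. Of the 21 members, 11 differed by less than 0.10 in either direction, a larger share than the 31.7% of all kept genes. Whether these shares differ was not tested.

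**Figure D1:**
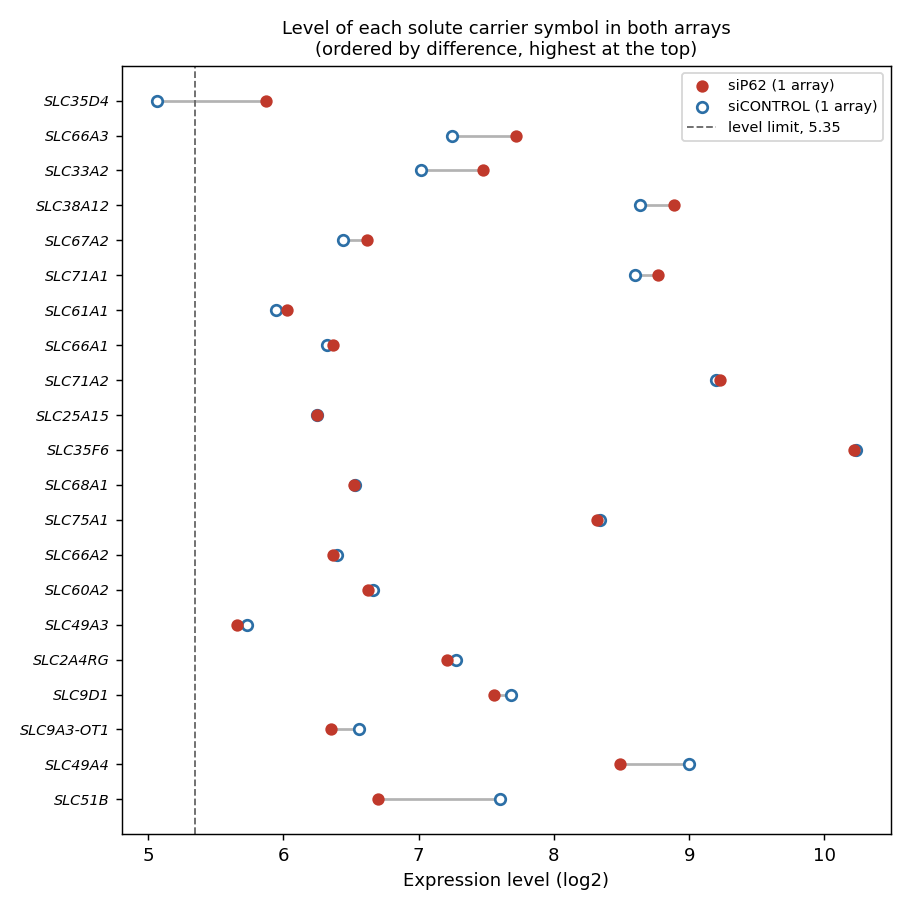
Log2 expression level (x axis) of the 21 solute carrier symbols in siP62 cells (filled red) and siCONTROL cells (open blue), 1 array each, ordered by difference with the highest at the top; the dashed line is the limit. SLC35D4 at the top has its siP62 point at 5.87, right of its siCONTROL point at 5.07, SLC51B at the bottom has its siP62 point at 6.70 left of its siCONTROL point at 7.60, and for 11 members the points lie within 0.10 of each other.

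The promoters of 3 of the 5 members that differed by more than 0.32 are shown, those that the RefSeq promoter table holds. SLC35D4 and SLC33A2 are named only. The promoters are the 250 bases before the RefSeq gene start, on the strand of the gene, from GRCh38.p14. SLC51B lies on the plus strand of chr15:65045137-65045386, SLC49A4 on the plus strand of chr3:122794819-122795068 and SLC66A3 on the plus strand of chr2:11155217-11155466. Capitals mark a match to any of 3 motifs, searched on both strands.
SLC51B: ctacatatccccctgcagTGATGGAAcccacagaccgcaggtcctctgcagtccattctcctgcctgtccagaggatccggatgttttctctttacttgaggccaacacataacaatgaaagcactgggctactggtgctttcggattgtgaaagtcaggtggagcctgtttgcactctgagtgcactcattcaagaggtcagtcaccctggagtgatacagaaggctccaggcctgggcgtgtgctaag
SLC49A4: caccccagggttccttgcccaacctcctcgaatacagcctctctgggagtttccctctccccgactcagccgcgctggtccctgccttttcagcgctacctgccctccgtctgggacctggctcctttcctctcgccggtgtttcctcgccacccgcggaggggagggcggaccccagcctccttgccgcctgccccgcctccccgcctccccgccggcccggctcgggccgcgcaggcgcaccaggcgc
SLC66A3: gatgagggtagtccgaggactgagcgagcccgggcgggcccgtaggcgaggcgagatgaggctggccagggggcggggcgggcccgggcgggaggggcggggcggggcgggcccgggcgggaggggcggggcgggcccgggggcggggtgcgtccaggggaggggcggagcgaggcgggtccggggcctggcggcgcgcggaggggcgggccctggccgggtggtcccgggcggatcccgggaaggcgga

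G and C made up 52.8% of the bases of the SLC51B promoter, 72.4% of that of SLC49A4 and 84.4% of that of SLC66A3. The promoter table held 17 of the 21 members, with a median of 71.2% G and C and a range of 52.8% to 86.8%, and SLC51B had the lowest share among them. Over all 27305 genes of the table the median was 58.0%. These were not chosen by level and no median was computed for the kept genes, so a high share cannot be ascribed to solute carriers. The motifs were the E-box CACGTG, read by MYC and by the lysosomal regulators TFEB and TFE3; the antioxidant response core TGACNNNGC, read by NRF2; and the amino acid response core TGATGNAA, read by ATF4. The E-box was in 1 of the 17 promoters (SLC60A2), in 7.73% of all promoters and in 11.3% of those of kept genes. The antioxidant response core was in 3 (SLC66A1, SLC68A1 and SLC71A2), in 13.2% of all promoters and in 15.4% of those of kept genes. The amino acid response core was in 1, that of SLC51B, in 3.89% of all promoters and in 2.05% of those of kept genes. A match is a description of the letters and not of binding. SLC66A1, SLC68A1 and SLC71A2, the members with the antioxidant response core, differed by 0.05, -0.01 and 0.03.

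Among the carriers of organic ions and bile acids, SLC51B had the lowest difference of all members. It encodes the beta subunit of the organic solute transporter, which together with the alpha subunit exports bile acids and steroid conjugates and is known as a target of the bile acid receptor FXR. Its log2 value was 6.70 in siP62 cells, against 7.60 in siCONTROL cells, a 1.87-fold lower level. Both values lay above the limit. In its bin of 395 genes of like mean level, 3 genes had a lower value of the difference, and the bin's robust SD (the scaled median absolute deviation, a spread over genes and not an error between replicates) was 0.21. SLC51A, the alpha subunit, did not pass the limit, with 4.45 in siP62 cells and 4.36 in siCONTROL cells. The level of the alpha subunit was not shown to be above background in either array.

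SLC49A4, a lysosomal membrane protein described as an exporter of the vitamin pyridoxine, was the other member lower by more than 0.32 on the log2 scale. Its log2 value was 8.49 in siP62 cells and 9.0 in siCONTROL cells, a 1.42-fold lower level. In its bin of 395 genes, 8 had a lower difference, at a robust SD of 0.19. SLC49A3, an orphan member of the same family, had 5.66 in siP62 cells and 5.73 in siCONTROL cells. FLVCR1, a choline and heme carrier that RefSeq also lists under an SLC49 number, had 8.12 in siP62 cells and 8.39 in siCONTROL cells. The differences of SLC49A4, SLC49A3 and FLVCR1 were -0.51, -0.07 and -0.27, where 41.8% of all kept genes were below 0, and that of SLC49A3 was among the 11 within 0.10 of 0.

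Among the carriers of nucleotide sugars, SLC35D4 had the highest difference of all members. It is a Golgi protein described as a carrier of UDP-N-acetylglucosamine, a building block of protein glycosylation. Its log2 value was 5.87 in siP62 cells, against 5.07 in siCONTROL cells, a difference of 0.80. The control value lay below the limit and was not shown to be above background, and SLC35D4 passed the limit through siP62 cells alone, so the size of this difference is uncertain and a difference was favoured by the choice of members. SLC35F6, of the same family and known for binding a mitochondrial adenine nucleotide carrier, had 10.22 in siP62 cells and 10.23 in siCONTROL cells. Because of the control value of SLC35D4, the 2 members are not compared with each other.

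The SLC66 family has the PQ-loop fold, and its first member exports cationic amino acids from the lysosome. SLC66A3, whose substrate is not assigned here, had 7.72 in siP62 cells and 7.25 in siCONTROL cells, a 1.39-fold higher level and the second highest difference of the members. In its bin of 395 genes, 11 had a higher difference. The lysosomal exporter SLC66A1 had 6.37 in siP62 cells and 6.32 in siCONTROL cells, and SLC66A2 had 6.37 and 6.40 in the same order. MPDU1, needed for the use of dolichol-linked mannose and listed in RefSeq under an SLC66 number, differed by 0.19. Of the 3 members of this family, SLC66A3 alone differed by more than 0.05 in either direction.

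**Figure D2:**
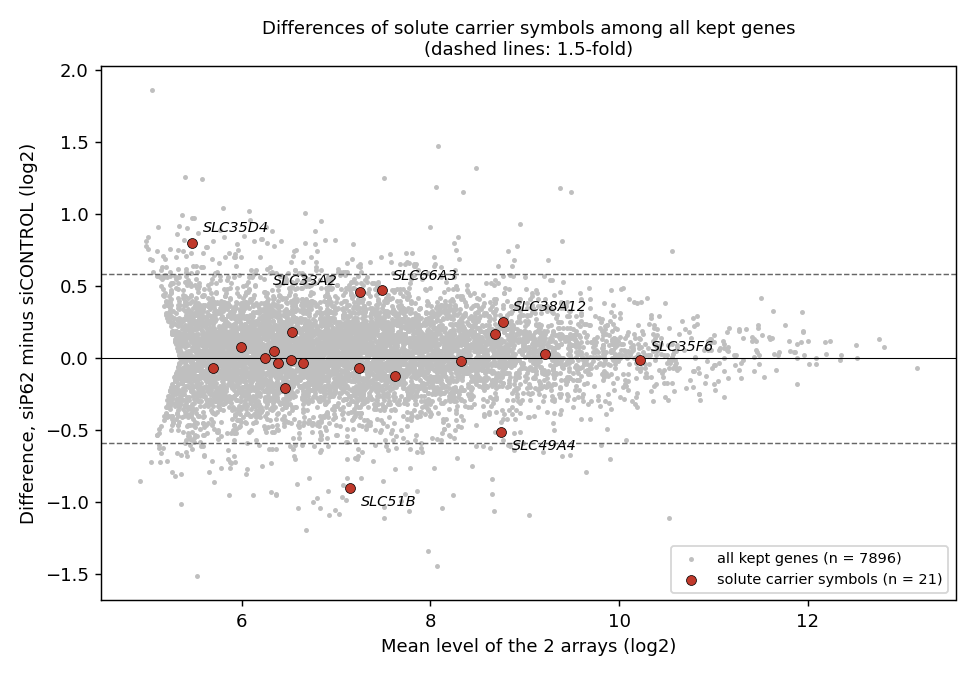
Difference between the arrays (y axis, siP62 minus siCONTROL, log2) against the mean level of both arrays (x axis, log2) for the 21 solute carrier symbols (red) and all 7896 kept genes (grey), with dashed lines at 1.5-fold in either direction. SLC35D4 (0.80) lies above the upper line and SLC51B (-0.90) below the lower line, and the other members lie between them, SLC66A3 (0.47), SLC33A2 (0.46) and SLC49A4 (-0.51) nearest to the lines.

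Among the 38 named symbols, carriers of amino acids numbered 2 members besides the mitochondrial ornithine carrier. SLC38A12, placed by its number among the sodium-coupled neutral amino acid carriers, had 8.89 in siP62 cells and 8.64 in siCONTROL cells, a 1.19-fold higher level. In its bin of 395 genes, 60 had a higher difference. With SLC66A1 at 0.05, the median of these 2 members was 0.15. SLC25A15, which exchanges ornithine for citrulline across the mitochondrial inner membrane in the urea cycle, had 6.25 in both arrays. SLC25A2, its close relative, did not pass the limit, with 4.52 in siP62 cells and 4.75 in siCONTROL cells. MTCH1 and MTCH2, outer membrane proteins of the SLC25 fold, differed by 0.09 and 0.14.

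Carriers of the other substrate classes were represented by 1 member each. SLC33A2, which belongs by its number to the family of the acetyl-CoA carrier of the endoplasmic reticulum, had 7.48 in siP62 cells and 7.02 in siCONTROL cells, a 1.38-fold higher level. In its bin of 395 genes, 16 had a higher difference. For sugars, SLC60A2, whose rat counterpart carries glucose with sodium in the kidney, had 6.63 in siP62 cells and 6.66 in siCONTROL cells. For metals, the molybdate carrier SLC61A1 had 6.03 in siP62 cells and 5.95 in siCONTROL cells. For inorganic ions, SLC9D1, a putative cation and proton exchanger, had 7.56 in siP62 cells and 7.68 in siCONTROL cells. Apart from SLC33A2, these members differed by at most 0.12 in either direction.

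Many members belong to the major facilitator fold and once had MFSD symbols, most of them orphans. RefSeq lists an MFSD synonym for 9 members, with a range of -0.07 to 0.46 and a median difference of 0.03, beside 0.04 over all kept genes. Among these, SLC33A2 was the only one that differed by more than 0.32. The paired relatives SLC71A1 and SLC71A2 had 8.77 and 9.23 in siP62 cells and 8.60 and 9.20 in siCONTROL cells, differences of 0.17 and 0.03. SLC67A2 had 6.62 in siP62 cells and 6.44 in siCONTROL cells. SLC75A1, whose yeast relative exports drugs, had 8.32 in siP62 cells and 8.34 in siCONTROL cells, and SLC68A1 had 6.52 and 6.53. Over all 8 members without an assigned substrate, 4 were above 0 and 4 below 0, where 55.4% and 41.8% of all kept genes were. The median of the 8 members was 0.01 and turned to -0.03 after median centring over all kept genes.

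The 2 members that are not carriers were both lower, with a median difference of -0.14, where 41.8% of all kept genes were below 0. SLC2A4RG had 7.21 in siP62 cells and 7.28 in siCONTROL cells. The noncoding RNA SLC9A3-OT1 had 6.35 in siP62 cells and 6.56 in siCONTROL cells. The substrate groups of the 21 members hold 1 or 2 members each, except that of the unassigned, so their medians describe single genes more than a group.

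The level limit chose the members, and the values around it are given as a description. Just inside were SLC49A3 with a higher value of 5.73, SLC35D4 with 5.87 and SLC61A1 with 6.03. Just outside were the antisense RNA SLC25A25-AS1, with 5.32 in siP62 cells and 5.12 in siCONTROL cells, and SLC25A2, whose higher value was 4.75. Of the 17 symbols below the limit, 14 were noncoding RNAs, antisense or divergent transcripts or pseudogenes and 3 were carriers (SLC51A, SLC60A1 and SLC25A2). No symbol below the limit was 1.5-fold higher or lower in siP62 cells. Of all named genes without a limit, 2.05% were 1.5-fold higher and 2.14% lower, so none among 17 symbols lies near the background. The antisense RNA SLC60A1-AS1 had the largest difference of the symbols below the limit, 0.51, with 2.75 in siP62 cells and 2.24 in siCONTROL cells.

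RefSeq gives an SLC number as a synonym to 54 further named genes, of which 37 passed the limit. Their median difference was -0.02, close to the -0.01 of the members, with 18 above 0 and 19 below 0, where 55.4% and 41.8% of all kept genes were. Of these, 0 were 1.5-fold higher and 1 was 1.5-fold lower, where 2.08% and 1.6% of all kept genes were, so a single gene among 37 lies near the background. That gene was MFSD6, an orphan carrier, which had 6.15 in siP62 cells and 7.02 in siCONTROL cells, a 1.83-fold lower level. The sideroflexin gene SFXN2 had 5.63 in siP62 cells and 6.15 in siCONTROL cells, and the magnesium carrier gene MAGT1 had 8.09 and 8.45. The lysophospholipid carrier MFSD2A had the highest difference of them, 0.44, with 5.39 in siP62 cells and 4.95, below the limit, in siCONTROL cells. Whether the members and these genes differ from each other was not tested.

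**Figure D3:**
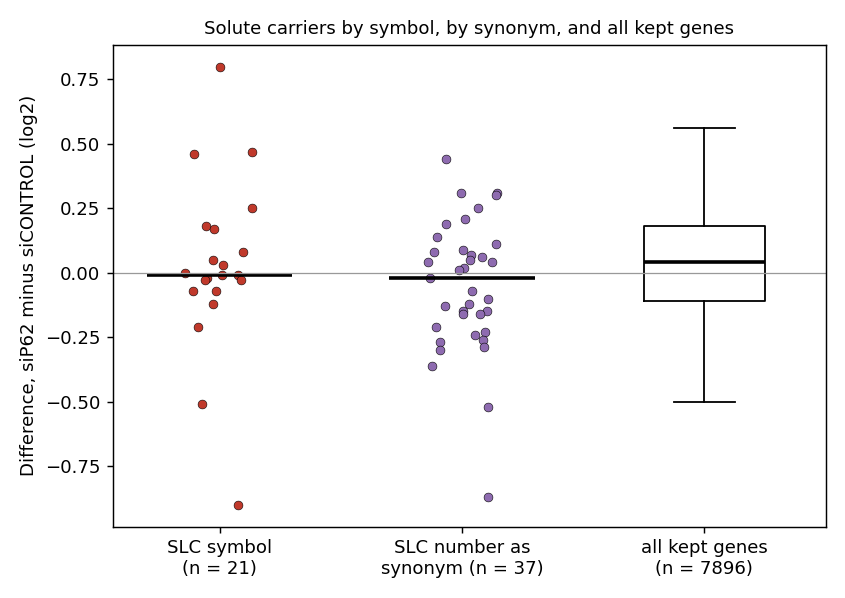
Difference between the arrays (y axis, siP62 minus siCONTROL, log2) for the 21 genes with an SLC symbol and the 37 genes with an SLC number as a synonym (points, with the median as a bar), and for all 7896 kept genes (box of the quartiles with the median, whiskers at percentiles 2.5 and 97.5). The medians of -0.01 and -0.02 lie beside 0.04 for all kept genes, and the point farthest below 0 in each set is SLC51B (-0.90) and MFSD6 (-0.87).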

How the data were processed

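The deposited table held 1 log2 value for each of 48226 probe sets and each of the 2 arrays, written to 2 decimals. Per the submitters' processing notes, the tools were RMA and Transcriptome Analysis Console 4.0.2.15. RMA usually subtracts background, equalises the distributions of arrays and summarises probes on a log2 scale, which would hide a shift of all genes. The deposited values of the 2 arrays were not identical in distribution, with medians over all probe sets of 4.02 in siP62 cells and 4.07 in siCONTROL cells. No source used here names the genome build of the probe sets. Platform annotation gave exactly 1 gene symbol to 16098 probe sets, and probe sets with more than 1 symbol were left out. For each of the 14884 genes named in this way, the probe set with the highest mean stood for the gene. All 38 solute carrier symbols matched RefSeq by gene ID. Counts past a fold, medians and robust SDs in 20 bins of mean level were computed in Python 3.11.15 with pandas 2.3.3, and the counting was tested on simulated data. The values have no detection call, and precision is limited by the number of arrays.

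Members, lists and motifs were chosen with earlier results of these data known. Substrate groups follow the symbols' family numbers and were corrected for SLC49A4, SLC51B, SLC60A2, SLC61A1 and SLC9A3-OT1 after the values were seen. Genes named were SQSTM1, the 8 highest and 8 lowest members by difference, the extremes of each group, members near the limit and the 2 list members with the largest absolute difference; the rest were named after their values were seen. Alternatives were median and loess centring (span 0.3), quantile normalization, no level limit, a limit at the 70th percentile and the mean over probe sets.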

Additional observations from a re-analysis of the deposited data

How the results depend on the processing

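Only the 3 scaling alternatives could move the value of a single member, since each was read by 1 probe set. They moved the 63 values by at most 0.049, and the 5 members that differed by more than 0.32 kept their sign. The difference of SLC51B ranged from -0.94 to -0.90, that of SLC49A4 from -0.56 to -0.51, that of SLC35D4 from 0.76 to 0.80, that of SLC66A3 from 0.42 to 0.47 and that of SLC33A2 from 0.41 to 0.46. After subtraction of the median difference, the median over the members was -0.05, with 8 above 0 and 13 below 0 (48.7% and 49.5% of all kept genes), and the value of SLC71A2 turned to -0.01. The median was 0.05 over all 38 symbols without a limit. Without a limit 21 symbols were above 0 (49.2% of all genes) and the median of those that are not carriers was 0.085. With the limit at the 70th percentile (6.67) 11 members were left, 0 of them 1.5-fold higher (1.75% of all genes), with 5 above 0 and 6 below 0 (57.7% and 40.1%), and the SLC35 group had a median of -0.01, since SLC35D4 no longer passed. With the genes that have an SLC number as a synonym added, a choice made after seeing the data, 2 of 58 were 1.5-fold lower, 27 above 0 and 30 below 0 (1.6%, 55.4% and 41.8% of all kept genes). No paired analysis was possible because each group held 1 array.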

Other observations

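Genes that act with carriers were looked at in lists. Of 25 partners and trafficking regulators, 15 were named on the array and 10 passed the limit, with a median difference of 0.065; STK39, a kinase that phosphorylates cation and chloride carriers, differed by -0.50 and ARRDC3, an arrestin that directs membrane proteins to degradation, by 0.42. Of 25 enzymes that act on freshly imported substrates, 13 were named and 12 passed, with a median of 0.13 and 8 above 0, where 55.4% of all kept genes were. The deoxycytidine kinase DCK differed by 0.54, the pyruvate carboxylase PC by -0.31 and ACSL1 by 0.31. Of 22 transcription factors known to act on carrier genes, 15 were named and 11 passed, with a median of -0.02. Of the 11, 3 were above 0 and 8 below 0, where 55.4% and 41.8% of all kept genes were. ATF4 and NFE2L2 differed by -0.02 and -0.08, and the largest differences were those of EPAS1 (-0.30) and SREBF1 (0.28).

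Of 14 genes of metal storage and metal ATPases, 7 were named and 6 passed, with a median of 0.095. Of the 6, 3 were above 0 and 3 below 0, where 55.4% and 41.8% of all kept genes were. CYBRD1, a ferric reductase, had 8.14 in siP62 cells and 9.20 in siCONTROL cells, while the metallothionein MT1F had 7.18 in siP62 cells and 6.17 in siCONTROL cells. Of the other metallothioneins in the list, MT1X and MT2A differed by 0.29 and 0.23, and MT1E, below the limit in both arrays, by -0.65. Of the 6 genes, 1 was 2-fold higher and 1 was 2-fold lower, where 0.165% and 0.228% of all kept genes were. Of 32 carriers and pores under other symbols, 24 were named and all 24 passed, with a median of 0.04. All but MCU, VDAC1, VDAC2 and VDAC3 were among the 37 genes with an SLC number as a synonym, so this list is no separate set. SFXN2 (-0.52) and MFSD2A (0.44), both given there, differed most.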
